A study of Mus musculus with 15 samples.

Results

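The 48 genes described here encode proteins that carry out mitosis: cyclins and the CDK1 kinase, mitotic kinases, kinetochore and spindle proteins, kinesin motors, condensin subunits and the transcription factors FOXM1 and MYBL2. They were given by name. Each name was matched to 1 gene of a count table of 54838 mouse genes, and all 48 had reads. The table holds RNA sequencing counts of 15 libraries of splenic B cells from wild-type (WT) male mice that were 3 months old and had been immunised with sheep red blood cells (SRBC) 9 days before. The libraries fall into 5 groups of 3, lettered A, B and C. CD40-activated, CpG-activated and LPS-activated libraries came from naive B cells kept for 5 days in an embryonic stem cell medium (KO-DMEM). These cells received mouse IL-4 at 80 ng/ml with antibody to CD40 at 5 µg/ml, the oligonucleotide CpG at 2 µM, or lipopolysaccharide (LPS) at 25 µg/ml, and were fed again on day 3. It is not clear from the labels that IL-4 went with CpG and LPS. Germinal centre (GC) and naive libraries came from sorted cells, and the sample labels name no culture for them. The labels do not say which mice stand behind a letter or whether mice were pooled, so p-values measure only the spread between these libraries, which may be partly technical.

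A dividing cell makes most of these RNAs late in its cycle. Rising cyclin B with CDK1, which the CDC25 phosphatases switch on, drives entry into mitosis. Condensins and topoisomerase II compact the chromosomes, kinetochores attach them to the spindle, and the checkpoint proteins MAD2 and BUBR1 hold CDC20 back until every chromosome is attached. In most such genes transcription is timed through a short promoter element, the cell cycle genes homology region (CHR), and through CCAAT boxes, which bind NF-Y. The DREAM complex holds the CHR silent in resting cells, and MYBL2 and FOXM1 act there in dividing cells. Naive B cells are resting. B cells divide fast in the dark zone of a germinal centre, and stimuli such as LPS, CpG or CD40 ligation also start division in culture.

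Library totals ran from 25397624 to 36272197 counts. The B cell marker Cd79a was at 884 to 1155 CPM in activated, 1486 to 1541 CPM in GC and 1940 to 2839 CPM in naive libraries, and Ms4a1 at 41.3 to 285 CPM in activated, 1839 to 2231 CPM in GC and 1091 to 1427 CPM in naive libraries. CPM are the counts of a gene on a scale common to all libraries, set by library size after a TMM adjustment (trimmed mean of M values). The 7 GC markers summed to 485 to 1090 CPM in activated libraries, where Rgs13 was at 0, to 2388 to 2673 CPM in GC libraries and to 71.4 to 129 CPM in naive libraries. The 6 markers of follicular naive B cells summed to 500 to 1443 CPM in activated libraries, to 312 to 442 CPM in GC libraries and to 6888 to 8577 CPM in naive libraries. T cell and NK cell markers stayed at or below 7.86 CPM. The naive libraries stood apart from one another. Naive B had 298 CPM of erythroid markers (naive A 29.2, naive C 3.30) and 49.9 CPM of neutrophil markers, and 11523 genes were detected in it, against 13920 in naive A and 18866 in naive C. Of the 48 mitotic genes, 20 had no read in naive B, 9 had none in naive A and 1 had none in naive C. No member was at 0 in any activated or GC library.

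The 48 genes together took 0.441% to 0.589% of all counts in the 9 activated libraries, 1.18% to 1.28% in the 3 GC libraries and 0.0455% to 0.0691% in the 3 naive libraries. The 3 ranges did not overlap. Summed over the members, the level was 5218 ± 480 CPM in activated cells (SD, n = 9 libraries), 11948 ± 178 CPM in GC cells and 587 ± 85.4 CPM in naive cells (SD, n = 3 each). Activated libraries of the same letter deviated together across stimuli, so these 9 are not independent replicates. Set against its own mean in GC cells, the median member stood at 43.0% to 55.4% in an activated library and at 1.48% to 2.20% in a naive one. In bulk RNA, fewer dividing cells and less of these RNAs in each cell cannot be told apart, and this holds for every comparison below.

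**Figure D1:**
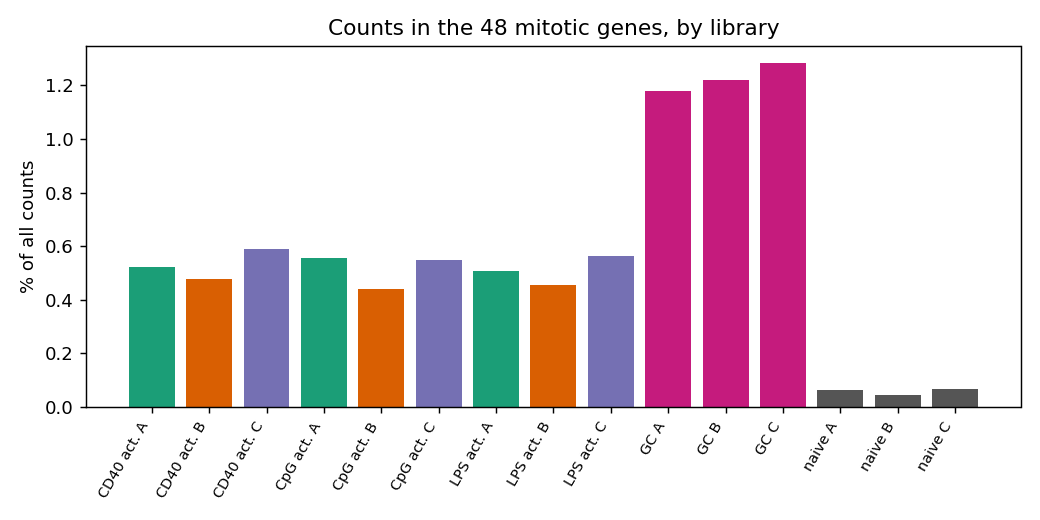
Bars show the percentage of all counts that fell on the 48 mitotic genes, 1 bar per library, with activated libraries coloured by letter and the axis starting at 0. The GC bars stand at 1.18 to 1.28%, all above the activated bars at 0.441 to 0.589%, and the naive bars are below 0.07%.

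The members share promoter letters that the choice of genes did not use. RefSeq windows from 250 bases before to 50 bases after the transcription start (build GRCm38.p6) were at hand for 39 of the 48. Aurkb, Ccna2, Cdc25c, Foxm1, Incenp, Kif20a, Smc4, Spc24 and Tpx2 had none. A CHR, searched as TTTGAA or TTCGAA on both strands, was found in 32 of the 39 windows (82.05%) and in 19.44% of the 27025 windows of the same length over all genes. A CCAAT box, searched as CCAAT on both strands, was found in 29 (74.36%), against 37.92% of all windows. Both were present in 27 (69.23%), against 7.704% of all windows, and 2 or more CCAAT boxes in 20 (51.28%), against 12.16%. The search allowed a CHR and a CCAAT box to share letters. Such matches are descriptions of the letters and not of binding. Members with a CHR had a median log2 difference between activated and GC cells of -0.90, and those without one of -1.18. The latter are only Birc5, Ccnb1, Cenpe, Mad2l1, Mybl2, Ncaph and Nuf2. Their differences ran widely, from Cenpe as the lowest to Mybl2, which was higher in activated cells. Members without a window are in neither median, and the contrast was not tested.

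4 windows are printed as examples, and they do not span the range of the results below. The member with the lowest difference, Hmgb2, has a CHR and CCAAT boxes in its window and is not printed. Ccnb2 has the most matches of the 4, Cdc20 and Kif23 were lower in activated than in GC cells, and Mybl2 was the member with the highest difference and has no match. A window without a match is not particular to Mybl2. Birc5, Mad2l1, Ncaph and Nuf2 also have none, and their mean levels were lower in activated than in GC cells. They lie on GRCm38.p6 at chr9:70421505-70421804 (minus strand, Ccnb2), chr4:118437294-118437593 (minus, Cdc20), chr9:61946750-61947049 (minus, Kif23) and chr2:163054385-163054684 (plus, Mybl2). Each is written 5′ to 3′ on the strand of its gene, with CHR and CCAAT letters (ATTGG where the box lies on the other strand) in capitals.
Ccnb2: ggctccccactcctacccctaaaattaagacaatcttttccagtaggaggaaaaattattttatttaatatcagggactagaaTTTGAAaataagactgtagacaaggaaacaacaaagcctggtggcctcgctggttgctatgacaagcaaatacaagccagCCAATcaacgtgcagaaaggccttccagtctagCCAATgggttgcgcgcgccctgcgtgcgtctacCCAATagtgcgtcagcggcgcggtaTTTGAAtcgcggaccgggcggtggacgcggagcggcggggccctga
Cdc20: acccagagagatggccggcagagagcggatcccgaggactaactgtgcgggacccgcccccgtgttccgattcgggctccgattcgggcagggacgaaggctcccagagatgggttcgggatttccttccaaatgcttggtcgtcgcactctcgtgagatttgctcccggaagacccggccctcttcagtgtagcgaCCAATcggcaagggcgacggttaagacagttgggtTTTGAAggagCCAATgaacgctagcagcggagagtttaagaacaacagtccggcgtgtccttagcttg
Kif23: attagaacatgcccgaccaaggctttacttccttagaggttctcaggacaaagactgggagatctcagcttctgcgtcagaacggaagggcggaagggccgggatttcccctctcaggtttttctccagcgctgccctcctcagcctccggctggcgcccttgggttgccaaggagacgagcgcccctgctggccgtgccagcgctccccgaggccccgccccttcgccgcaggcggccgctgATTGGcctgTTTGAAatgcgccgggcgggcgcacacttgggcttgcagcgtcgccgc
Mybl2: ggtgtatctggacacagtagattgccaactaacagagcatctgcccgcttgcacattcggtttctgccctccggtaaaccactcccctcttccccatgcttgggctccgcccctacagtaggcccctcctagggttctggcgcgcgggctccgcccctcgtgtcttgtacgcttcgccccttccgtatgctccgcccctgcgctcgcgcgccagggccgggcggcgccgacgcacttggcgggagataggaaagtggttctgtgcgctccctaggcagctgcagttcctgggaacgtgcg

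Counting the transcription start as 0, the CCAAT boxes of Ccnb2 begin at -87, -54 and -21 and its CHRs at -167 and 4. In Cdc20 a CHR at -18 lies between CCAAT boxes at -53 and -8. In Kif23 the CCAAT box begins at -7 and the CHR at 2.

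GC cells were first compared with naive cells, the resting B cells of immunised mice. All 48 rose in GC cells at an adjusted p under 0.05 (edgeR quasi-likelihood test, Benjamini-Hochberg over 17144 genes). Of all genes tested, 17.9% were called higher and 34.5% in either direction. The median log2 fold change was 5.62 over the members and 0.00 over all genes. In all 48 every GC library lay above every naive library, as it did for 25.3% of all genes. The smallest change belonged to Cenpa, which encodes the histone variant of centromeres. It had 173, 164 and 152 CPM in GC A, B and C, against 21.2, 76.1 and 48.8 CPM in the naive libraries of the same letters, a log2 fold change of 1.74 (SE 0.33, adjusted p = 0.000892).

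At the naive level the members ran from genes with no reads to genes with a clear resting level. Cdc25c, a phosphatase that activates CDK1, had 0 counts in all 3 naive libraries and 4014 in the GC libraries, so that it was at least 1287-fold higher in GC cells, counted against a floor of 3 reads over the naive group. Kif2c, a kinesin that takes microtubules apart at the kinetochore, had 104, 94.6 and 98.4 CPM in GC libraries and 8 naive reads, all in naive C. Ttk, the checkpoint kinase also called MPS1, had 61.1, 66.6 and 95.04 CPM in GC libraries and 24 naive reads. Hmmr, a spindle protein that also binds hyaluronan, had 90.5, 87.1 and 97.9 CPM in GC libraries and 24 naive reads. The naive reads of Ttk and Hmmr were also all in naive C, so no naive read is left for these 3 genes without that library. Their log2 fold changes were 10.10 (Kif2c, adjusted p = 1.83e-08), 8.11 (Ttk, adjusted p = 1.94e-05) and 8.43 (Hmmr, adjusted p = 8.68e-06).

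The members with the largest change in the other roles were Nuf2 (7.54), Ncapg (7.32), Cdca8 (6.32) and Mybl2 (4.49), all as log2 fold changes of GC over naive. NUF2 is a subunit of the NDC80 complex that holds microtubule ends, NCAPG a subunit of condensin I, CDCA8 (borealin) a member of the chromosomal passenger complex, and MYBL2 (B-MYB) the activator bound to the MuvB core. At the other end, Smc4 had 571, 550 and 597 CPM in GC libraries, against 136, 47.8 and 145 CPM in naive libraries. Cdc25b, a further CDC25 phosphatase, had 381, 347 and 361 CPM in GC libraries, against 89.6, 56.3 and 121 CPM in naive libraries. Both were thus readily measured in resting cells, and both rose, by 2.39 for Smc4 and 2.03 for Cdc25b on the log2 scale (adjusted p = 1.76e-05 and 0.0146).

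Each activated group was also set against naive cells. In all 3 comparisons 47 of the 48 members were called higher and none lower, where 19.8% (CD40), 19.7% (CpG) and 19.5% (LPS) of all genes were called higher and 14.3%, 14% and 14.2% lower. The median log2 fold changes of the members were 4.62, 4.51 and 4.51, and those of all genes 0.17, 0.18 and 0.18. The 3 comparisons share their naive libraries with one another and with GC against naive. For 47 members all 9 activated libraries lay above all 3 naive libraries, which was so for 20.5% of all genes. The exception in each count was Cdc25b, with log2 fold changes of 0.27 (CD40), 0.23 (CpG) and 0.19 (LPS), SE 0.55 each, and adjusted p = 0.742, 0.786 and 0.825.

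**Figure D2:**
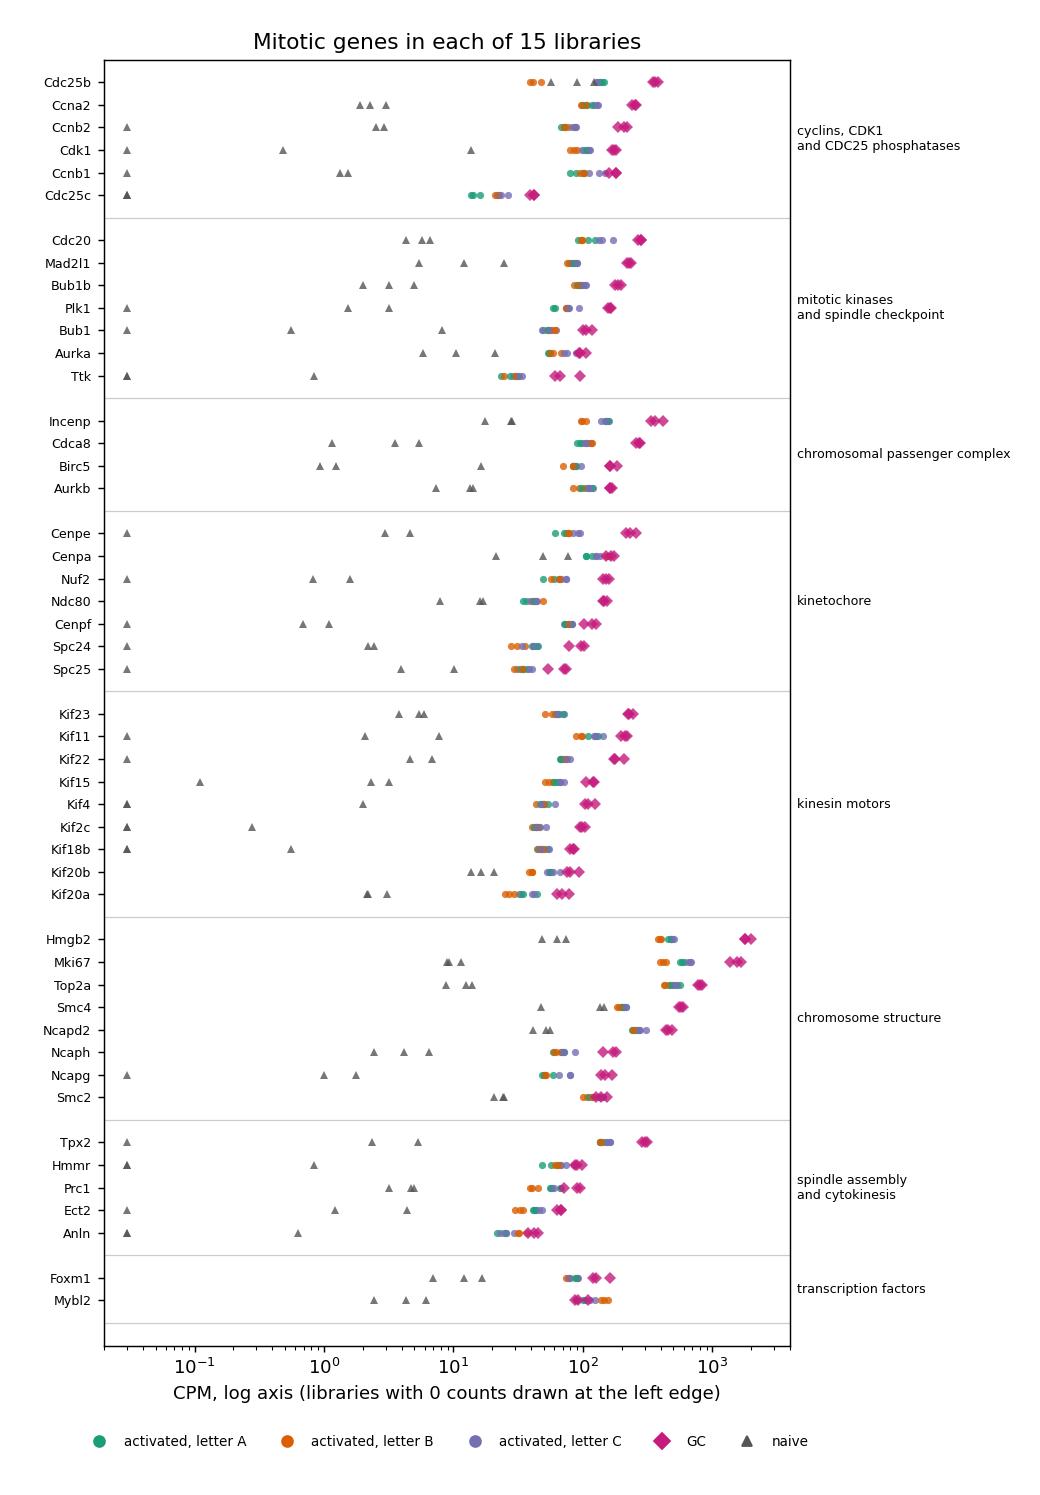
Each line of points is a member, grouped by role, and each point a library, placed by its CPM on a log axis, with libraries at 0 counts drawn at the left edge. GC points lie to the right of the naive points in all 48 members, and activated points lie between them in most.

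The comparison of activated with GC cells sets the members' level after activation in culture against that in the germinal centre. Activated cells came from naive and not from GC cells. For this comparison, fell and rose therefore mean lower and higher than in GC cells, not a change over time. Libraries of 1 letter deviated together across the 3 stimuli, so the counts of the CD40, CpG and LPS libraries of a letter were summed and 3 sums were tested against 3 GC libraries in a fit that also held the naive libraries. Of the 48 members 17 fell in activated cells and none rose, where 10.6% of 16029 genes were called lower, 14.3% higher and 24.9% in either direction. An unadjusted p under 0.05 was found for 22 members in all, and for 5718 of the 16029 genes. The log2 fold change was below 0 for 47 of the 48, with a median of -0.98, while the median of all genes was 0.07. In 45 members all 9 activated libraries lay below all 3 GC libraries, as in 21.2% of all genes. The 3 whose ranges overlapped were Cenpa, Smc2 and Mybl2.

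The number of calls depended on the libraries that shared the fit. With the GC libraries and the activated sums alone, 45 of 48 members were called lower, where 19.8% of all genes were, and the members' median was -0.96. Leaving out naive B alone gave 34 members lower (16.1% of all genes). Leaving out a GC library or an activated letter gave 11 to 14, where 1007 of 16957 to 1295 of 16970 genes were called lower. The SE moved more than the fold change. Ccnb2, for example, which was at 2.91, 0 and 2.53 CPM in the naive libraries, had an SE of 0.70 with the naive libraries and of 0.12 without them. Its log2 fold change was -1.33 with and -1.32 without them. The calls by role below come from the fit with the naive libraries unless another is named. In that fit 10.6% of all genes were called lower, and a share near this is not a result about a role.

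**Figure D3:**
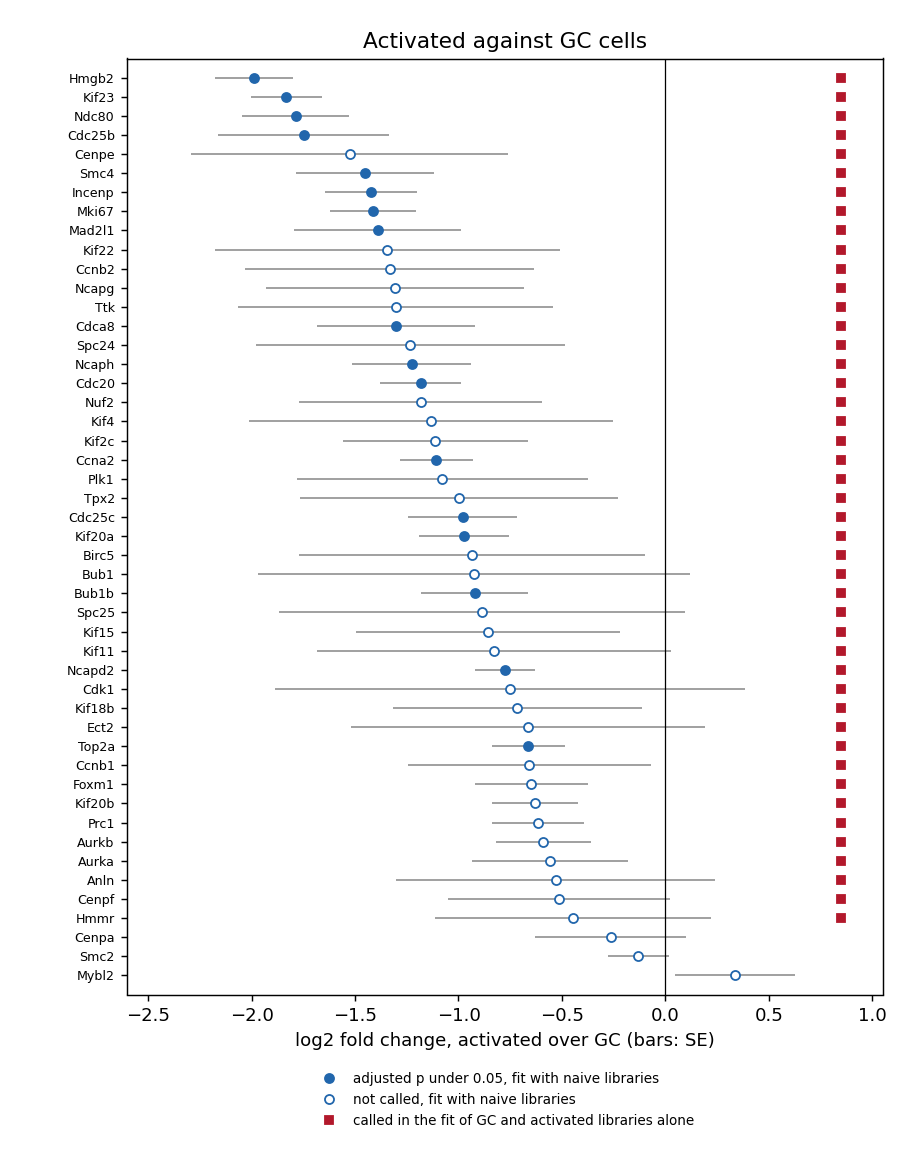
Points give the log2 fold change of activated over GC cells for each member, with bars of 1 SE, in the fit that includes naive libraries. Filled points mark the 17 called members, and squares at the right mark the 45 called when GC and activated libraries were fitted alone.

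Among cyclins, CDK1 and CDC25 phosphatases, 3 of 6 fell in activated cells and the median log2 fold change was -1.04. Cdc25b (ENSMUSG00000027330, chr2:131186949-131198497 on GRCm38) had 39.3, 130 and 147 CPM as lowest, median and highest of the 9 activated libraries, against 381, 347 and 361 CPM in GC libraries. The change was -1.75 (SE 0.41, adjusted p = 0.0130). Of the 9 activated libraries, 6 lay above the naive range of this gene and 3 below it. Ccna2, cyclin A2, had 97.3, 108 and 130 CPM in activated libraries, against 254, 258 and 237 CPM in GC libraries (-1.11, SE 0.18, adjusted p = 0.00151). Cdc25c had 13.6, 21.8 and 26.3 CPM in activated libraries, against 41.6, 39.0 and 42.1 CPM in GC libraries (-0.98, SE 0.26, adjusted p = 0.02999). The partners in the core mitotic kinase were not called in the fit with the naive libraries. Ccnb1 differed by -0.66 (SE 0.59), Ccnb2 by -1.33 (SE 0.70) and Cdk1 by -0.75 (SE 1.14), with adjusted p of 0.495, 0.212 and 0.717, although all of their activated libraries lay below all GC libraries. In the fit without naive libraries Ccnb1, Ccnb2 and Cdk1 were called lower by the same test, with adjusted p of 0.00794, 6.1e-05 and 0.00123.

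Of 7 mitotic kinases and checkpoint genes, 3 fell, with a median of -1.08. Cdc20 (ENSMUSG00000006398, chr4:118432901-118437352), the activator of the anaphase-promoting complex, had 91.0, 109 and 172 CPM as lowest, median and highest activated values, against 279, 279 and 268 CPM in GC libraries. Its change was -1.18 (SE 0.19, adjusted p = 0.00181). Mad2l1, which encodes MAD2, the inhibitor of CDC20, had 75.9, 82.6 and 90.3 CPM in activated libraries, against 229, 233 and 218 CPM in GC libraries (-1.39, SE 0.40, adjusted p = 0.0314). Bub1b, which encodes BUBR1, another part of that inhibitor, changed by -0.92 (SE 0.26, adjusted p = 0.0270). The activator and its inhibitors were thus lower together. The kinases Aurka (-0.56), Bub1 (-0.93), Plk1 (-1.08) and Ttk (-1.30) were not called. Aurka came nearest to the GC range in this role, with 54.0, 58.4 and 89.0 CPM in activated libraries, against 92.8, 95.3 and 106 CPM in GC libraries.

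The chromosomal passenger complex corrects faulty attachments at the centromere and later acts in the midzone. Of its 4 genes 2 fell, with a median of -1.12. Incenp, the scaffold of the complex, had 95.8, 147 and 160 CPM in activated libraries, against 360, 335 and 417 CPM in GC libraries (-1.42, SE 0.22, adjusted p = 0.00143). Cdca8 had 90.6, 105 and 118 CPM in activated libraries, against 274, 257 and 273 CPM in GC libraries (-1.30, SE 0.38, adjusted p = 0.0327). Its kinase Aurkb differed by -0.59 (SE 0.23, adjusted p = 0.0922) and Birc5, which encodes survivin, by -0.93 (SE 0.84, adjusted p = 0.496). Incenp and Cdca8 therefore stood at 36.1% and 39.3% of their GC mean, and Aurkb at 64.2%.

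In the kinetochore the median was -1.18 and 1 of 7 members fell in the fit with the naive libraries, where 10.6% of all genes did. That member was Ndc80 (ENSMUSG00000024056, chr17:71496100-71526857), which encodes the microtubule-binding subunit of the outer kinetochore. It had 34.2, 41.7 and 49.2 CPM in activated libraries, against 145, 142 and 153 CPM in GC libraries and 7.86, 16.1 and 17.0 CPM in naive libraries. The change was -1.79 (SE 0.26, adjusted p = 0.000885). The other subunits of the same complex, Nuf2 (-1.18), Spc24 (-1.23) and Spc25 (-0.89), were not called, nor were the motor Cenpe (-1.53, SE 0.77, adjusted p = 0.194) and Cenpf (-0.52). In the fit without naive libraries Nuf2, Spc24, Spc25, Cenpe and Cenpf were called lower by the same test. Their adjusted p there were 0.000116, 0.0003, 0.00137, 7.67e-05 and 0.0085. Ndc80 stood at 28.1% of its GC mean, and Nuf2, Spc24 and Spc25 at 42.6%, 41.1% and 52.0%. Cenpa had 105, 125 and 159 CPM in activated libraries, against 173, 164 and 152 CPM in GC libraries, and the groups overlapped (-0.26, SE 0.36, adjusted p = 0.685).

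Of 9 kinesin motors 2 fell, and the median was -0.97. Kif23 (ENSMUSG00000032254, chr9:61915905-61946774), which encodes MKLP1, the motor subunit of centralspindlin in the spindle midzone, had 50.6, 62.9 and 71.9 CPM in activated libraries, against 222, 226 and 244 CPM in GC libraries. The change of -1.83 (SE 0.17, adjusted p = 7.64e-05) was the second largest of the 48 members. Kif20a, which encodes MKLP2 and carries the passenger complex to the midzone, had 24.8, 33.4 and 44.4 CPM in activated libraries, against 68.6, 77.7 and 62.6 CPM in GC libraries (-0.97, SE 0.22, adjusted p = 0.00955). The 7 that were not called ran from -1.34 (Kif22) to -0.63 (Kif20b). Of the spindle motors among them, Kif11, which drives the poles apart, had 87.7, 121 and 142 CPM in activated libraries, against 198, 220 and 213 CPM in GC libraries.

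Of the genes of chromosome structure 6 of 8 fell in the fit that held the naive libraries, with a median of -1.27. Hmgb2 (ENSMUSG00000054717, chr8:57511907-57515999), a DNA-bending chromatin protein, had 381, 476 and 507 CPM as lowest, median and highest of the activated libraries, against 1987, 1781 and 1789 CPM in GC libraries and 48.01, 62.7 and 73.7 CPM in naive libraries. It changed most of the 48 genes, by -1.99 (SE 0.19, adjusted p = 8.4e-05), a level 3.97-fold lower in activated cells. Mki67, which encodes the proliferation marker Ki-67, a coat of mitotic chromosomes, had 395, 577 and 688 CPM in activated libraries, against 1355, 1543 and 1673 CPM in GC libraries (-1.41, SE 0.21, adjusted p = 0.000937). Smc4, a condensin ATPase, had 182, 202 and 215 CPM in activated libraries, against 571, 550 and 597 CPM in GC libraries (-1.45, SE 0.33, adjusted p = 0.0108).

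Smc2, the other condensin ATPase, behaved unlike its partner Smc4. It had 101, 119 and 144 CPM in activated libraries, against 139, 153 and 127 CPM in GC libraries, and the ranges overlapped (-0.13, SE 0.15, adjusted p = 0.602). The difference between these 2 genes was not itself tested. Of the condensin I subunits, Ncaph changed by -1.23 (SE 0.29, adjusted p = 0.0125) and Ncapd2 by -0.78 (SE 0.15, adjusted p = 0.00379), while Ncapg differed by -1.31 without a call (SE 0.62, adjusted p = 0.172). Top2a, topoisomerase II alpha, had 426, 496 and 566 CPM in activated libraries, against 772, 828 and 804 CPM in GC libraries, the smallest change among the called members (-0.66, SE 0.18, adjusted p = 0.0218).

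None of the 5 genes of spindle assembly and cytokinesis and neither transcription factor was called in this fit. Tpx2, the spindle activator of Aurora A, had 136, 143 and 161 CPM in activated libraries, against 314, 301 and 288 CPM in GC libraries (-0.996, SE 0.77, adjusted p = 0.421). Prc1, which bundles midzone microtubules, Ect2 and Anln, which build the cleavage furrow, and Hmmr differed by -0.61, -0.66, -0.53 and -0.45. In the fit without naive libraries all 5 were called lower, and so were 1 of the 2 factors, 7 of 8 genes of chromosome structure, 6 of 7 kinetochore genes and all members of the other 4 roles.

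Neither of the transcription factors was called, and the difference between them was not tested. Foxm1 had 73.4, 86.1 and 91.7 CPM in activated libraries, against 120, 127 and 161 CPM in GC libraries (-0.65, SE 0.27, adjusted p = 0.120). Mybl2 (ENSMUSG00000017861, chr2:163054687-163084688) had 88.9, 113 and 156 CPM in activated libraries, against 87.4, 110 and 92.2 CPM in GC libraries and 6.10, 2.45 and 4.30 CPM in naive libraries. It was the 1 member with a log2 fold change above 0 (0.34, SE 0.29, adjusted p = 0.477), and the activated and GC ranges overlapped. Its level was 147 ± 8.70 CPM in letter B, 93.2 ± 6.66 CPM in letter A and 113 ± 9.21 CPM in letter C (SD, n = 3 stimuli each), and the difference between letters was not tested. Mybl1, which encodes the related A-MYB and is 1 of the 7 GC markers, had 6.54, 9.32 and 11.7 CPM in activated libraries, against 462 ± 32.3 CPM in GC cells and 1.45 ± 1.66 CPM in naive cells (SD, n = 3 each). Mybl1 was lower by 5.55 on the log2 scale in activated than in GC cells (SE 0.84, adjusted p = 0.00137).

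Each stimulus was also tested alone against GC cells. Members called lower numbered 19 of 48 with CD40, 21 with CpG and 22 with LPS, against 12.4%, 12.6% and 12.2% of all genes, and none was called higher, as 15.9%, 16.4% and 15.8% of all genes were. The members' medians were -1.01, -1.05 and -1.04, and Hmgb2 had the lowest value in each, at -2.03, -2.05 and -2.04. These comparisons share their GC libraries.

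Between stimuli no member was called, and 0% of all genes were. No member had an unadjusted p under 0.05 in any of the 3 comparisons by edgeR, where 92 (CpG against CD40), 115 (LPS against CD40) and 71 (LPS against CpG) of 17144 genes did. DESeq2 also called 0 members. The members' log2 differences ran from -0.18 (Cdc25c) to 0.25 (Ttk) for CpG over CD40, from -0.26 (Anln) to 0.29 (Ttk) for LPS over CD40 and from -0.22 (Kif18b) to 0.15 (Birc5) for LPS over CpG. The median SE was 0.35 in each, in a fit that does not pair the letters. Within letters, LPS over CD40 was below 0 in all 3 letters for 15 members and above 0 in all 3 for 3, against 13.8% and 14.8% of all genes. For LPS over CpG these counts were 11 and 6 members, against 14.1% and 13.7% of all genes, and for CpG over CD40 they were 7 and 3 members, against 11.7% and 14.4%. The largest difference of any member within a letter was 0.48 on the log2 scale. Cdc20 had 91.0, 96.4 and 133 CPM in LPS-activated A, B and C, 125, 97.9 and 140 CPM in CpG-activated A, B and C, and 109, 97.6 and 172 CPM in CD40-activated A, B and C. Its LPS level was the lowest of the 3 stimuli in every letter, with log2 differences of -0.27, -0.02 and -0.37 from CD40 and of -0.45, -0.02 and -0.07 from CpG in letters A, B and C. Cdc20 was chosen after its values were seen, and other members differed more evenly. Kif18b was at -0.28, -0.14 and -0.23 for LPS over CpG, and Ttk at 0.44, 0.31 and 0.15 for LPS over CD40. When the letter was blocked and only the 9 activated libraries were fitted, again no member was called, while 27, 44 and 45 of 15727 genes were. In that fit 2, 8 and 3 members had an unadjusted p under 0.05, as did 954, 1420 and 1071 of all genes.

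The letters separated the activated libraries more than the stimuli did. For the median member, letter took 70.0% of the variance over the 9 libraries and stimulus 9.87%, against 55.0% and 11.7% for the median of all genes. The ratio of the highest to the lowest letter mean was 1.25 for the median member and 1.45 for the median gene, so the size of the difference was small. Letter C was highest for 38 members, B for 7 and A for 3, and letter C was lowest for none. The summed level was 5752 ± 169 CPM in letter C, 5188 ± 243 in letter A and 4715 ± 162 in letter B (SD, n = 3 stimuli each). The plasma cell markers moved with the letters too. Their sum was 1956 to 3390 CPM in letter C and 329 to 512 CPM in letters A and B, and was 1307 to 1638 CPM in GC and 191 to 243 CPM in naive libraries. Jchain made up most of it, with 1538 to 2844 CPM in letter C and 17.0 to 114 CPM in A and B, Prdm1 and Sdc1 were also higher in C, Irf4 overlapped, and Tnfrsf17 was at 0 in A and B and at most 0.50 CPM in C. Other markers moved with other letters. The dendritic cell markers summed to 165 to 204 CPM in letter B and 27.0 to 64.7 CPM in letters A and C, against 44.5 to 47.8 CPM in GC and 3.40 to 5.99 CPM in naive libraries. Nearly all of it was Flt3, and Siglech was at most 0.27 CPM in activated libraries. The macrophage and monocyte markers summed to 21.4 to 26.1 CPM in letter A and 3.33 to 6.25 CPM in letters B and C, against 1.02 to 2.40 CPM in GC and 3.27 to 15.6 CPM in naive libraries. Most of it in letter A was Adgre1, and Csf1r was at 0 in all 9 activated libraries. The part of these cell types in the letter differences of the members was not tested.

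The member that differed most between letters was Cdc25b, by 3.31-fold. It had 135 to 147 CPM in letter A, 39.3 to 47.1 CPM in letter B and 125 to 134 CPM in letter C, so that letter B lay below all 3 naive libraries (56.3 to 121 CPM) and letters A and C above them. Cdc25c (1.63-fold) was lowest in letter A, with 13.6 to 16.2 CPM, and had 21.0 to 26.3 CPM in B and C. Mki67 (1.61-fold) was lowest in B, with 395 to 436 CPM, and had 558 to 604 CPM in A and 644 to 688 CPM in C. Mybl2 (1.58-fold) went the other way, with 139 to 156 CPM in B, 88.9 to 101 CPM in A and 105 to 123 CPM in C. Incenp (1.53-fold) had 95.8 to 105 CPM in B and 137 to 160 CPM in A and C. In these genes the 3 stimuli of a letter lay close together, and of the 5 only Mybl2 and Cdc25b left the order activated between GC and naive.

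**Figure D4:**
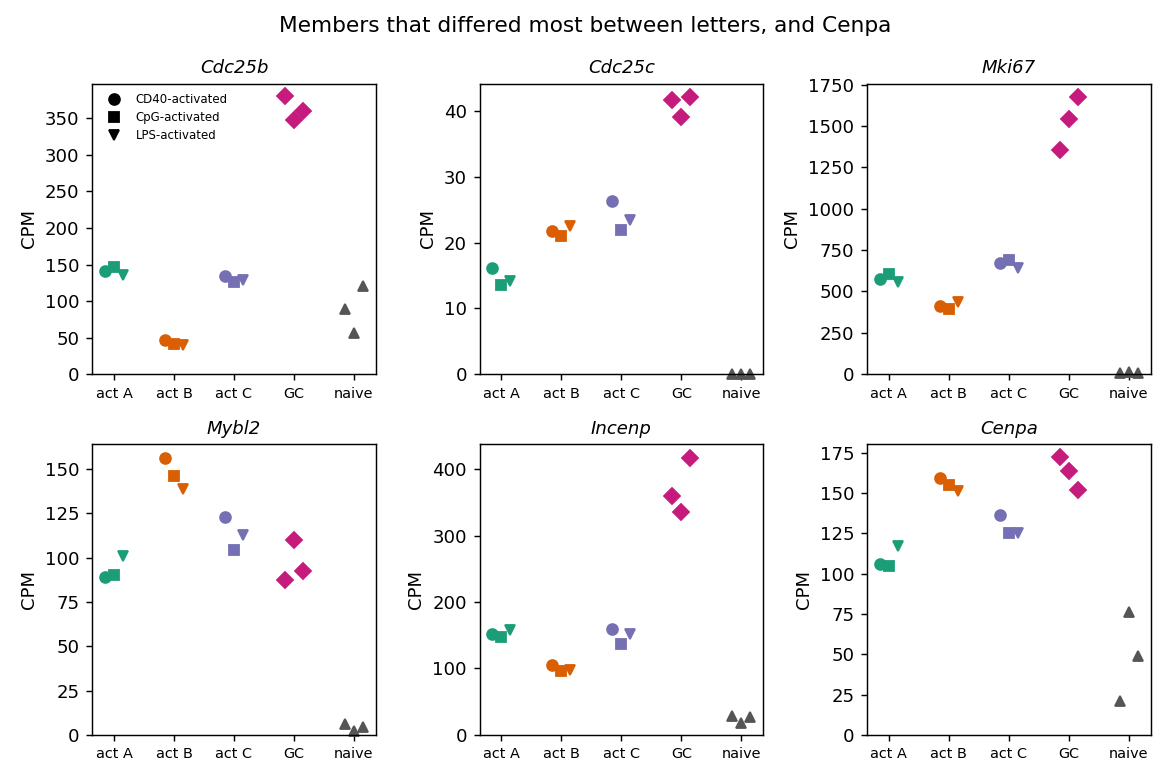
Panels show the CPM of the 5 members that differed most between letters, and of Cenpa, in activated letters A, B and C (symbols mark the stimulus), GC and naive libraries, on linear axes from 0. In letter B Cdc25b is at 39.3 to 47.1 CPM, below the naive libraries, while Mybl2 is at 139 to 156 CPM, above the GC libraries.

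Levels were compared between genes as CPM per kilobase (kb) of exon. In GC cells Hmgb2 was highest, at 617 ± 38.8 per kb, followed by Mki67 at 151 ± 15.9 and Cdc20 at 147 ± 3.52 (SD, n = 3). Mki67 and Cdc20 did not differ beyond their spread. The lowest were Cdc25c at 8.32 ± 0.33, Cenpf at 7.43 ± 0.82 and Anln at 4.57 ± 0.40 per kb. In activated cells Hmgb2 was again first, at 150 ± 17.6 per kb, and Anln last, at 3.06 ± 0.56 (SD, n = 3 letters). The order of the 48 members was similar in activated and GC cells (Spearman's rho 0.92 over 48 members, which share libraries and gene lengths, given as a description). In naive cells the order differed at the top, where Cdc25b had 23.9 ± 8.68, Smc4 21.0 ± 10.3 and Hmgb2 20.5 ± 4.30 per kb, values that overlapped within their spread. The order depends on the length used. Per kb of the longest transcript, GC cells had 705 ± 44.4 for Hmgb2, 154 ± 3.67 for Cdc20, 153 ± 5.39 for Top2a and 151 ± 15.9 for Mki67, of which the last 3 did not differ beyond their spread. On that scale the lowest were Kif20b at 14.8 ± 1.73, Cenpf at 10.3 ± 1.14 and Anln at 8.99 ± 0.79, and Cdc25c had 15.5 ± 0.62.

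The surrounding machinery was described by 10 lists of 170 further genes, of which 169 were tested. In activated against GC cells 49 of these fell and 3 rose, where 10.6% of all genes were called lower and 14.3% higher, and the median log2 fold change was -0.70. With only the groups compared in the fit, 118 fell and 7 rose, where 19.8% of all genes were called lower and 25.2% higher. In that fit the lower genes were 29 of 36 in DNA replication, 21 of 28 in the kinetochore list, 15 of 20 in the spindle and centrosome list, 13 of 20 in the anaphase-promoting complex list, 11 of 14 in the cohesin list and 10 of 15 in the mitotic entry and exit list. They were 10 of 18 in the MuvB and DREAM list, 4 of 10 in cytokinesis, 4 of 5 in CENP-A loading and 1 of 3 in condensin II. The counts by list that follow come from the fit with the naive libraries, and a share of calls near 10.6% is not a result about that list. Of the 36 genes of DNA replication 19 fell and none rose. Rfc1, the large subunit of the clamp loader, had 77.6 ± 6.58 CPM in activated cells and 425 ± 14.3 CPM in GC cells (-2.40; SD, n = 3 letters and 3 libraries). Rfc3, a small subunit of the same loader, had 37.8 ± 5.81 CPM in activated cells and 129 ± 12.0 CPM in GC cells (-1.73).

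The anaphase-promoting complex and its regulators had 6 of 20 genes lower, led by its inhibitor Fbxo5 (-1.19) and the subunits Anapc13 (-1.06) and Anapc16 (-0.89). The remaining inner and outer kinetochore had 5 of 28 lower, led by Cenps (-1.70), Ska2 (-1.01) and Cenpt (-0.91). CENP-A loading had 1 of 5 lower (Rbbp7, -0.67). Cohesin and its regulators had 4 of 14 lower, among them the subunits Stag2 (-0.99) and Smc1a (-0.89) and the acetyltransferase Esco1 (-0.80). Condensin II had none of 3 called. Kinases and phosphatases of mitotic entry and exit had 4 of 15 lower, among them Ccnh (-0.93), Arpp19 (-0.88) and Ppp2r2d (-0.83). Spindle and centrosome had 3 of 20 lower, the kinesin Kif18a (-1.41), Haus1 of the augmin complex (-1.15) and the microtubule regulator Tacc3 (-1.02).

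A few genes went the other way. Septin9, a filament protein of the cleavage furrow, had 288 ± 34.5 CPM in activated cells, 72.8 ± 12.4 CPM in GC cells and 121 ± 25.8 CPM in naive cells (2.03 for activated over GC, SE 0.21), while the GTPase Rhoa fell (-0.65). The MuvB and DREAM list had 2 of 18 higher and 6 lower. Its largest changes were those of Mybl1, E2f5 (-1.60) and E2f8 (-1.52), and Rb1, the retinoblastoma protein, rose by 1.39. For GC over naive cells 137 of the 169 genes were higher and 5 lower, where 17.9% of all genes were called higher and 16.5% lower, with a median of 2.24.

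**Figure D5:**
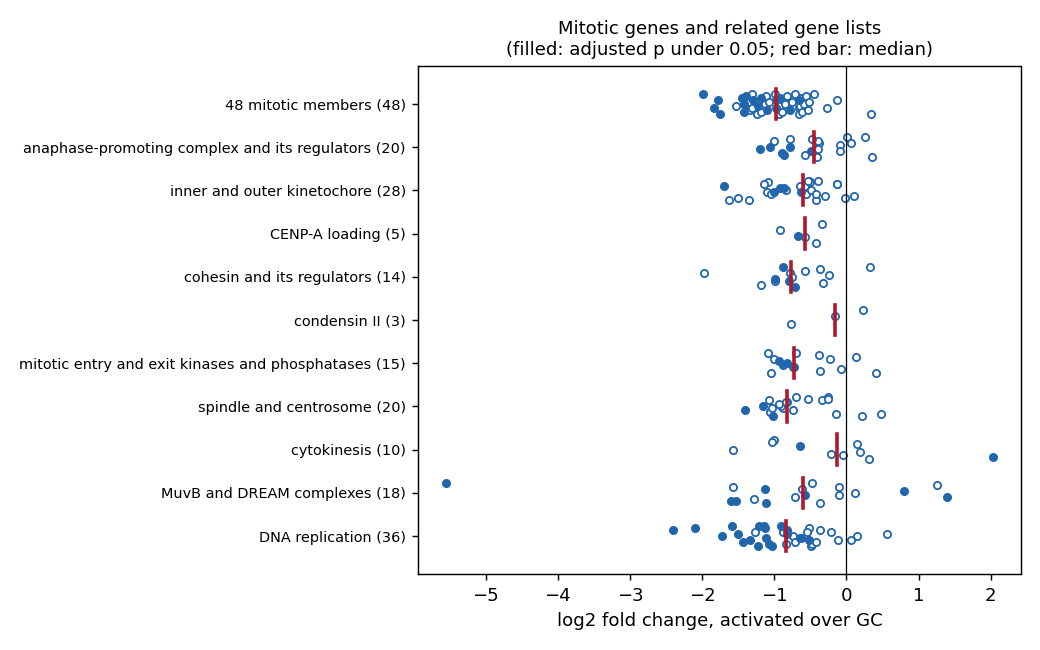
Points give the log2 fold change of activated over GC cells for the 48 members and the genes of 10 related lists (number tested in brackets). Filled points passed the test and red bars are medians, which lie at -0.98 for the members and between -0.84 and -0.13 for the lists.

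Some counts carry a doubt that the sources used here do not settle, because the strand setting of the counting is not given. Exons of Ccna2, Cdc20, Cdc25b, Cdc25c, Cdca8, Kif4, Kif20a, Kif22, Ncapg, Plk1 and Prc1 overlap those of a gene on the other strand. Kif20a had 16436 counts over all libraries and Cdc23, which it overlaps, 21249. Cdc20 had 59449 and Elovl1 39899. Ccnb1 and Ccnb2 have named pseudogenes, with 393 and 1264 counts, against 45830 and 41272 for the genes.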

How the data were processed

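The deposited table gives raw counts per gene for 15 libraries. Per the submitters' processing notes, STAR 2.7.10a, featureCounts 2.0.6 and DESeq2 were used with mm10 (GRCm38). Strand handling, multi-mapping and the annotation release are not given in the sources used here. GENCODE M21 named 54809 of 54838 gene IDs. Genes were filtered with filterByExpr (17144 kept, or 16029 for sums per letter; all 48 members passed), scaled by TMM and tested, two-sided, with edgeR 4.0.16 (glmQLFit, robust, and glmQLFTest) in R 4.3.3, with Benjamini-Hochberg adjustment over all genes and a threshold of 0.05. One mean per group was fitted over all 15 libraries. For activated against GC, counts were summed per letter. CPM were taken from counts and TMM-adjusted library sizes; SE is the log2 fold change divided by the square root of F. Fold changes against 0 counts use a floor of 3 counts over the group and, like other counts, cover counting error only. Fits were tested on simulated data with planted fold changes and independent libraries. The simulation held neither shared letter deviations nor uneven naive libraries, so it does not bear on how the calls depended on these.

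Deviations from group means of same-letter libraries correlated at 0.362 to 0.495 between activated groups and at -0.0696 to 0.0752 in pairs with naive or GC libraries. The letters were therefore taken as pairing among activated groups only. The alternatives were other scalings, DESeq2 1.42.0, no low-count filter, fewer groups in the fit, the letter as a block, and leaving out libraries. Named genes were the called members with the 10 lowest and 10 highest log2 fold changes (activated against GC), the largest change per role (GC against naive), the 5 largest letter ratios, up to 3 called genes per list, and the 3 highest and 3 lowest levels. Other members are named to complete a role, having been chosen after their values were seen. The members and lists were chosen with earlier results of these data known. Values of some genes are not reported here.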

Additional observations from a re-analysis of the deposited data

Results flagged for a closer look

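Cdc25b was marked because the activated letters lay on opposite sides of the naive mean of 88.96 CPM: the 3 libraries of letter B were at 39.3 to 47.1 CPM, all below it, and the 6 libraries of letters A and C at 125 to 147 CPM, all above it. This difference between letters was not tested. No other member met a rule for a closer look.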

How the results depend on the processing

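For the members called in GC or in an activated group against naive cells, and between stimuli, no alternative moved a count by more than 1.5 times. For activated against GC, 17 members were lower, and 18, 18 and 17 with median-ratio, upper-quartile and plain library-size scaling, 20 by DESeq2, 16 without the filter and 22 with letter C alone. Of 16029 genes, 1702 were lower in the main fit, 1856, 1814 and 1963 under these scalings and 2297 by DESeq2. Without the filter 1584 of 27027 genes were lower, and with letter C alone 2757 of 17144. The count of members lower was 45 with only the groups compared, 27 with the 9 activated libraries kept apart, 27 with letter A alone, 28 with letter B alone, when 1 member (Mybl2) was higher, and 11 to 34 when 1 library or letter was left out. Of all genes, 3307 of 16699 were lower with only the groups compared. Of 17144 genes, 3028 were lower with the 9 libraries kept apart, 2747 with letter A alone and 3058 with letter B alone, when 3599 were higher. Leaving out 1 library or letter gave 1007 of 16957 to 2774 of 17180 genes lower. In the fits of a single letter its 3 stimuli stood as replicates although they deviated together, so their p-values cover only the spread within 1 letter. For single stimuli against GC, fits of only the groups compared gave 42 (CD40), 45 (CpG) and 45 (LPS) members lower. Of all genes, 3040 of 15149, 3203 of 15137 and 3233 of 15202 were lower in these fits. With the letter as a replicate block, 17 members were lower in activated against GC cells, and 20 (CD40), 22 (CpG) and 22 (LPS) for single stimuli. Of all genes, 1396 of 16029 were then lower in activated against GC cells, and 2351, 2393 and 2329 of 17144 for these stimuli. Of the named members Cdc25c lost its call under this block, and no count of members moved by over 1.5 times. Hmgb2, Kif23, Ndc80, Cdc25b, Smc4, Incenp, Mki67, Cdc20, Ccna2 and Ncapd2 were called under all 20 alternatives. Bub1b, Cdc25c, Cdca8, Kif20a, Mad2l1, Ncaph and Top2a lost their call under 1 to 7 of them, with no change of sign. Mybl2 changed sign with letter A alone (-0.051). The naive reads of many members were uneven between the naive libraries, which limits their fold changes against naive cells. In naive B 20 members were at 0. Others had most of their naive reads there: Cdk1 had 0, 404 and 14 in naive A, B and C, Bub1 0, 238 and 16, and Birc5 34, 482 and 36. The cause of the changes in the counts was not tested.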
